A study of Ovis aries with 18 samples.

Results

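USP1, its activating partner WDR48 and 7 genes of the Fanconi anemia pathway (FANCD2, FANCI, FANCA, FANCL, UBE2T, BRCA1 and BRCA2) were followed through sheep embryos sired by rams on different diets. These are 9 of the 20092 genes in the count table, and all 9 were among the 16488 genes with enough counts to be tested. USP1 was picked because its counts were higher in embryos of methionine-fed sires, so its difference between diets is described here without a test. The other 8 genes were listed as its complex and pathway partners.

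The embryos came from Polypay rams given either a basal control diet or that diet top-dressed with 1.5 g (0.22%) of methionine coated so that rumen microbes do not break it down. The rams were fed before puberty and were bred to superovulated ewes after the supplementation had ended. RNA from pools of 5 embryos, labelled as blastocysts with inner cell mass and trophectoderm, was amplified and sequenced, giving 6 pools per diet. Control rams Ram410, Ram423 and Ram444 each sired 2 pools, while among the methionine-fed rams Ram424 sired 4 pools and Ram498 and Ram511 sired 1 each. Pools from the same ram have their sire in common and are not independent, and the p-values below measure only the spread between these pools.

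The Fanconi pathway repairs crosslinks between the strands of DNA and protects stalled replication forks. A core complex holds the ubiquitin ligase FANCL, which works with the conjugating enzyme UBE2T to attach a single ubiquitin to FANCD2 and FANCI, and the modified pair is clamped on DNA while nucleases and the recombination proteins BRCA1 and BRCA2 act. USP1 removes that ubiquitin, as it also does from PCNA, and gains its full activity when bound to WDR48. Cells of the early embryo divide quickly and depend on repair that is tied to replication.

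Levels are given as CPM, counts scaled by TMM to a common library size, which compare pools and not genes. Gene counts summed to 1173289 to 1554651 per control pool and 1017847 to 2398589 per methionine pool. These sums are a small part of the reads per pool that the paper reports, for a reason not examined here. Of the 20092 genes, 19372 to 19504 had at least 1 count in each control pool and 18934 to 19575 in each methionine pool. How much of a low count is background of the amplified RNA was not tested. Control pool Embryo444_2 and methionine pool Embryo511_1 stood apart from the rest, with Spearman correlations over all tested genes of 0.526 to 0.626 in their 21 pairs, against 0.806 to 0.955 in the 45 pairs of the other 10 pools. Of 8 trophectoderm markers 6 were in the table, none at 0 in all pools, and their summed level was 195 CPM in Embryo444_2 and 128 in Embryo511_1 against 5124 to 11733 in the other 5 control and 7084 to 14328 in the other 5 methionine pools. The blastocyst label of these 2 pools is therefore not borne out by their markers. Inner cell mass markers (3 of 7 in the table) summed to 68.0 and 131 CPM in these pools against 157 to 567 in the rest, where POU5F1 was below the other pools, NANOG within them and PRDM14 above them. Hypoblast markers (5 of 7) summed to 273 and 289 against 419 to 961, where GATA6 was below the other pools in both and FOXA2 above them in both. GATA4 was above them in Embryo511_1 only and PDGFRA in Embryo444_2 only, while SOX17 was below them in Embryo511_1 only. The 5 oocyte markers in the table (of 8) summed to 732 CPM in Embryo511_1 and 94.2 in Embryo444_2 against 94.9 to 162 elsewhere, and the 2 blood markers (of 6) to 256 and 127 against 58.9 to 96.9. Of the blood markers, PTPRC was above the other 10 pools in both (254 and 121 CPM) and CD68 below them in both (1.98 and 6.37 CPM). Uterine markers (5 of 7) summed to 166 CPM and cumulus markers (2 of 6) to 139 CPM in Embryo444_2, above the highest of the 10 pools (136 and 94.9), with only MUC1 and HAS2 above those pools as single genes. The diet difference of each of the 9 genes is given with these pools and without them, a comparison chosen after the data had been seen. In pooled embryos, fewer cells of a type and less RNA per cell cannot be told apart.

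USP1, the deubiquitinase, was higher in every methionine pool than in any control pool. In control pools it stood at 35.4 and 26.2 CPM (Ram410), 22.1 and 30.8 (Ram423) and 25.5 and 17.7 (Ram444). In methionine pools it stood at 54.5, 57.7, 59.99 and 48.2 CPM (Ram424), 44.0 (Ram498) and 134 (Ram511). The lowest methionine pool was thus above the highest control pool, and Embryo511_1 lay far above the other methionine pools. Means were 26.3 ± 6.23 CPM in control and 66.4 ± 33.6 CPM in methionine pools (SD, n = 6 each), a ratio of 2.52 and a log2 fold change of 1.32 (SE 0.30). Raw counts behind these levels were 25 to 48 per control pool and 73 to 135 per methionine pool, and Embryo511_1 held the highest count although it was the shallowest library. The closest pools of the diets, Embryo410_1 (47 counts, exact 95% Poisson interval 25.99 to 47.0 CPM) and Embryo498_1 (73 counts, 34.5 to 55.3 CPM), overlapped within counting error. The oocyte markers ZP2, ZP3, ZP4 and NLRP5 and the blood marker PTPRC were also above the other pools in Embryo511_1, while FIGLA was within them and the blood marker CD68 below them, and their part in its USP1 level was not tested.

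**Figure D1:**
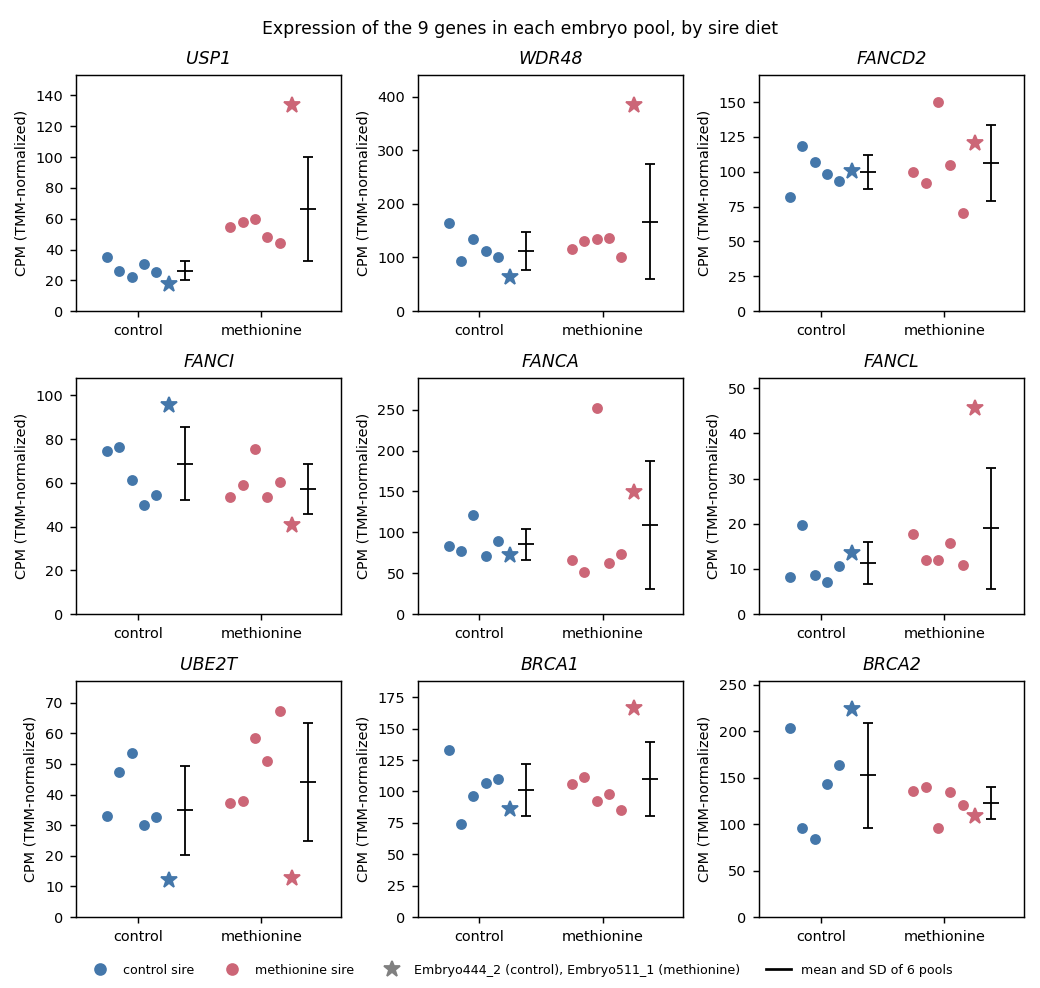
Each panel plots the TMM-normalized CPM of a gene (y axis, from 0) in the 12 embryo pools by sire diet (x axis), with stars for the pools that stood apart and bars for the mean and SD of 6 pools. USP1 is the gene whose methionine pools (44.0 to 134 CPM) all lie above its control pools (17.7 to 35.4 CPM), and the star of Embryo511_1 tops the panels of USP1, WDR48, FANCL and BRCA1.

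Without Embryo444_2 and Embryo511_1, USP1 averaged 28.01 ± 5.14 CPM in 5 control pools and 52.9 ± 6.68 CPM in 5 methionine pools. The ratio was then 1.89 and the log2 fold change 0.91 (SE 0.22), and the pools of the diets still did not overlap. Averaged by sire, USP1 stood at 30.8, 26.5 and 21.6 CPM for Ram410, Ram423 and Ram444 on the control diet, and at 55.1, 44.0 and 134 CPM for Ram424, Ram498 and Ram511 on methionine. Across all genes tested, 0.352% had pools of the diets that did not overlap, 0.158% with methionine pools higher, and 0.879% were higher without overlap in the 10 pools. USP1 was chosen on this contrast, so its place among those genes carries no further information.

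The other 8 genes did not differ detectably between diets. None passed an FDR of 0.05 in edgeR's quasi-likelihood test with Benjamini-Hochberg adjustment, where adjusted p-values ran from 0.686 to 0.937, and in none did the pools of the diets separate. Nor did any gene of the 16488 pass (0%, smallest FDR 0.584), whereas the likelihood-ratio test called 5 genes and DESeq2 called 16, none of them among the 8. At an unadjusted p under 0.05 there were 1306 genes in all (7.92%) and 0 of the 8. That share treats pools of a ram as independent. The count over all genes was 963 with Embryo424_1 and Embryo424_2 summed, 572 with pools summed per ram and 355 with ram as a random effect. Each of these fits had 0 of the 8. Fold changes pointed higher in methionine pools for 6 genes and lower for 2, with a median log2 fold change of 0.23 against 0.0051 over all genes tested. Without the 2 pools that stood apart, 5 pointed higher and 3 lower, with a median of 0.030 against -0.030 over all genes. An exact two-sided permutation test of each gene over the 924 assignments of pools gave unadjusted p-values of 0.128 to 0.764, and over the 20 assignments of ram means, which cannot go below 0.1, values of 0.3 to 1.

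**Figure D2:**
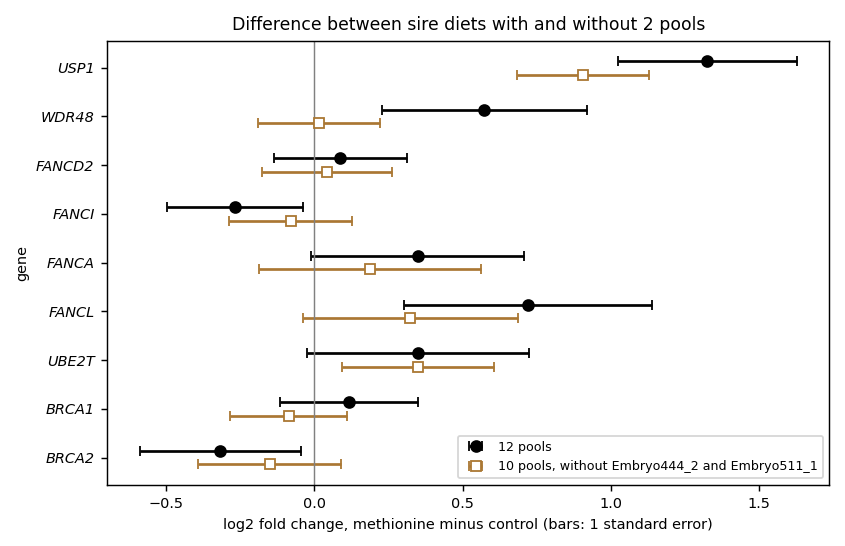
The x axis gives the log2 fold change, methionine minus control, of each gene (y axis), with bars of 1 standard error, over all 12 pools (filled circles) and over the 10 pools without Embryo444_2 and Embryo511_1 (open squares). Leaving out the 2 pools moves USP1 from 1.32 to 0.91, WDR48 from 0.57 to 0.017 and BRCA1 from 0.12 to -0.087.

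WDR48, the WD40-repeat protein that activates USP1, followed USP1 in Embryo511_1 but not between diets elsewhere. Its control pools held 165, 93.5, 135, 112, 101 and 64.4 CPM in the order of Ram410, Ram423 and Ram444. Its methionine pools held 115, 130, 134 and 137 CPM for Ram424, 101 for Ram498 and 385 for Ram511. Embryo511_1 was more than any other pool and Embryo444_2 less than any other, while the remaining 10 pools of both diets overlapped fully. The log2 fold change was 0.57 (SE 0.34, 95% interval -0.16 to 1.30), with an FDR of 0.695 in edgeR's quasi-likelihood test. In 10 pools the means were 121 ± 28.8 and 123 ± 14.99 CPM (n = 5 each), with a log2 fold change of 0.017 (FDR 0.984).

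The transcripts of the partners were also compared within each pool as the log2 ratio of USP1 to WDR48, a quantity in which pool depth cancels. It was -2.06 ± 0.30 in control pools (range -2.61 to -1.83) and -1.27 ± 0.19 in methionine pools (range -1.52 to -1.08). Methionine pools all had more USP1 per WDR48 than control pools, and here Embryo511_1 (-1.52) and Embryo444_2 (-1.86) fell next to the other pools of their diets. The difference of 0.79 was 0.84 without Embryo511_1, and since USP1 was chosen for its diet difference the ratio is a description too. Over the 10 pools, log2 levels of USP1 and WDR48 had a Pearson r of 0.28, against 0.80 when the 2 pools that stood apart were added. These points share sires and libraries.

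**Figure D3:**
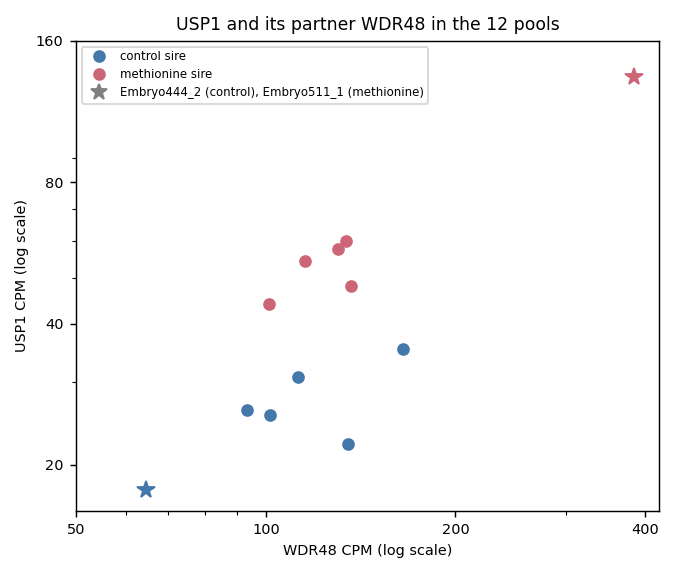
USP1 (y axis, log scale) is plotted against WDR48 (x axis, log scale) in TMM-normalized CPM for the 12 pools, colored by sire diet. Away from the stars at either end, which mark Embryo444_2 and Embryo511_1, methionine pools hold 44.0 to 59.99 CPM of USP1 and control pools 22.1 to 35.4 CPM over the same range of WDR48.

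FANCD2 and FANCI encode the paired substrates from which USP1 removes ubiquitin. FANCD2 had a coefficient of variation of 19.8% over 12 pools, the lowest of the 9 genes, and of 21.3% over 10, where those of BRCA1, FANCI and WDR48 were lower (15.9% to 17.7%). It ran from 82.0 to 118 CPM (median 99.3) in control and from 70.5 to 150 CPM (median 102) in methionine pools. Both its lowest and its highest value were in methionine pools, Embryo498_1 and Embryo424_3. Its log2 fold change was 0.088 (SE 0.22, 95% interval -0.38 to 0.56, FDR 0.937 by edgeR's quasi-likelihood test) and 0.042 in 10 pools.

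FANCI ran from 50.05 to 95.6 CPM (median 68.0) in control and from 40.6 to 75.5 CPM (median 56.2) in methionine pools. The pools that stood apart lay at its ends, Embryo444_2 highest and Embryo511_1 lowest, which is the reverse of their places for USP1 and WDR48. The log2 fold change of -0.27 (SE 0.23, 95% interval -0.75 to 0.22, FDR 0.780 by edgeR's quasi-likelihood test) was -0.080 in 10 pools. The log2 ratio of FANCD2 to FANCI averaged 0.57 ± 0.37 in control and 0.88 ± 0.44 in methionine pools, with overlapping ranges, and the difference of 0.32 was 0.18 without Embryo511_1.

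Among the genes that attach the ubiquitin, FANCL, the ligase, had the fewest reads. It was counted 11 to 46 times per pool, so that counting error alone gave a coefficient of variation of 21.2% at its mean count. Control pools held 7.06 to 19.8 CPM (median 9.61) and methionine pools 10.8 to 45.6 CPM (median 13.9). The highest value was again Embryo511_1, and the other methionine pools lay inside the control range. The log2 fold change was 0.72 (SE 0.42, 95% interval -0.16 to 1.60, FDR 0.686 by edgeR's quasi-likelihood test), and 0.32 in 10 pools (FDR 0.756). The interval spans folds of 0.892 to 3.04.

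UBE2T, the conjugating enzyme that works with FANCL, had its lowest values in both pools that stood apart, 12.0 CPM in Embryo444_2 and 12.9 CPM in Embryo511_1. In the other 10 pools it ran from 30.2 to 53.6 CPM in control and from 37.3 to 67.4 CPM in methionine pools, which overlapped. Its log2 fold change was 0.35 (SE 0.37, 95% interval -0.44 to 1.14, FDR 0.826 by edgeR's quasi-likelihood test) in 12 pools and 0.35 (SE 0.26, FDR 0.609) in 10. The log2 ratio of UBE2T to FANCL was -1.82 in Embryo511_1 and -0.16 in Embryo444_2. The methionine mean of this ratio minus the control mean was -0.32 over all pools and 0.30 without Embryo511_1.

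FANCA, a scaffold subunit of the core complex, was high in 1 methionine pool of Ram424. Embryo424_3 held 252 CPM, whereas the other pools of Ram424 held 66.4, 51.5 and 62.9 CPM. Control pools ran from 70.6 to 121 CPM (median 79.99), and Embryo511_1 stood at 150 CPM. The median of methionine pools (69.9 CPM) was thus below that of control pools although their mean was higher (109 ± 78.2 against 85.6 ± 18.9 CPM, SD, n = 6 each). The log2 fold change of 0.35 (SE 0.36, FDR 0.822 by edgeR's quasi-likelihood test) was 0.19 in 10 pools (FDR 0.880) and became -0.091 without Embryo424_3.

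BRCA1, a ligase that promotes recombination, and BRCA2, a recombination mediator, act after the FANCD2-FANCI pair. BRCA1 ran from 74.4 to 133 CPM (median 101) in control and from 84.9 to 167 CPM (median 102) in methionine pools, with Embryo511_1 highest. Its log2 fold change was 0.12 (SE 0.23, FDR 0.915 by edgeR's quasi-likelihood test) and -0.087 in 10 pools. BRCA2 ran from 84.3 to 224 CPM (median 154) in control and from 96.0 to 140 CPM (median 127) in methionine pools. Every methionine pool was below the control median, yet control pools spread to both sides of them, and the log2 fold change was -0.32 (SE 0.27, 95% interval -0.89 to 0.26, FDR 0.779) and -0.15 in 10 pools.

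**Figure D4:**
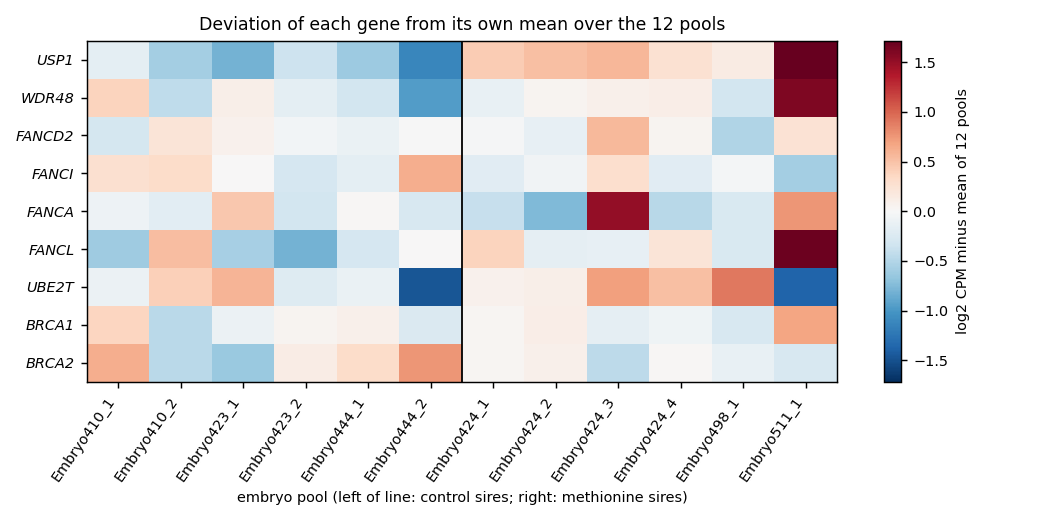
Color gives the log2 CPM of each gene (rows) in each embryo pool (columns, control sires left of the line, methionine sires right) minus the mean of that gene over the 12 pools. USP1 is below its mean in all 6 control pools and above it in all 6 methionine pools, while the deepest colors of the other genes fall in Embryo444_2, Embryo511_1 and, for FANCA and FANCD2, Embryo424_3.

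Much of the variation in these genes was between single pools. Embryo511_1 held the highest value of 4 genes and the lowest of 1, and Embryo444_2 the highest of 2 and the lowest of 3. Coefficients of variation over 12 pools reached 68.3% for FANCL, 67.2% for USP1 and 58.4% for WDR48, against 21.2%, 12.0% and 7.01% from counting alone. Without those 2 pools they were 34.4%, 35.3% and 17.7%, and that of FANCA was 61.6%.

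Pools of the same ram (9 pairs) differed in USP1 by a median of 0.26 on the log2 scale, and pools of different rams on the same diet (21 pairs) by 0.44. The same order held for every gene but BRCA2, where pools of a ram differed by 0.48 and pools of different rams by 0.31. Ram424 supplied 6 of the 9 same-ram pairs. Embryo511_1, the only pool of Ram511, entered only the pairs of different rams. These medians were not computed without the pools that stood apart, so the order cannot be read apart from them. Pools of a ram can also share a ewe, which cannot be told apart here from sharing a sire.

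Among the 10 pools, BRCA1 and BRCA2 levels varied together (Pearson r = 0.80), as did FANCD2 and FANCA (0.66) and WDR48 and BRCA1 (0.65). UBE2T varied opposite to BRCA1 (-0.71) and BRCA2 (-0.71), and USP1 had coefficients between -0.026 and 0.32 with the other 8 genes. These are descriptions over pools that share sires and diets.

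The genes whose log2 levels were most like those of USP1 over the 12 pools were ZKSCAN8 (Pearson r = 0.979), a zinc finger gene, PFDN5 (0.929), a prefoldin chaperone subunit, CNBP (0.927), a nucleic acid binding protein, PA2G4 (0.914), a growth-related RNA binding protein, and CCDC50 (0.909). All 5 had their highest value in Embryo511_1 and their lowest in Embryo444_2. In the 10 pools the coefficient remained at 0.949 for ZKSCAN8 and was 0.725 to 0.863 for the others. ZKSCAN8 averaged 32.0 ± 5.08 CPM in control and 65.2 ± 30.2 CPM in methionine pools (SD, n = 6 each). Likeness to USP1 carries its diet difference along, so these levels are a description. WDR48 ranked 87 of 16487 genes in likeness to USP1 over the 12 pools, with the coefficient of 0.28 in 10 pools given above, and the remaining Fanconi genes ranked between 640 (FANCL) and 15651 (FANCI).

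Other genes of the pathway were described from lists chosen with earlier results of these data known. Of 11 further core complex genes, 3 were higher and 8 lower in methionine pools, with a median log2 fold change of -0.10, and in 10 pools 5 were higher and 6 lower, with a median of -0.061. In 12 pools they ranged from FANCC (-0.50, SE 0.36) to FAAP20 (0.38, SE 0.27), and 0 passed edgeR's quasi-likelihood test at FDR 0.05 or had an unadjusted p under 0.05. FANCC held 115 CPM in Embryo444_2, its highest value.

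Of 25 genes that act after FANCD2-FANCI (nucleases, recombination, translesion and checkpoint genes), 13 were higher and 12 lower, with a median of 0.10. None passed the FDR, and 2 had an unadjusted p under 0.05 in edgeR's quasi-likelihood test, a share close to the 7.92% of all genes. In 10 pools the median was 0.0093 and 4 had an unadjusted p under 0.05, with 11.9% of all genes. One of the 2 was FAN1, a nuclease recruited by ubiquitinated FANCD2, with a log2 fold change of -1.31 (SE 0.49, FDR 0.585), where Embryo444_2 alone held 326 CPM against a methionine range of 18.8 to 51.1 CPM. The other was ERCC4, the XPF nuclease (-0.93, SE 0.38, FDR 0.596), named after its values were seen, and the highest fold change was that of EME1 (0.56, SE 0.38). EME1 had its highest value in Embryo511_1, 118 CPM against a control range of 19.2 to 40.6 CPM.

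Relatives, partners and further substrates of USP1 numbered 14, of which 12 were tested, 8 higher and 4 lower, with a median of 0.21 and 0 past the FDR or at an unadjusted p under 0.05 in edgeR's quasi-likelihood test. PCNA, the replication clamp that USP1 deubiquitinates, had the highest fold change (0.58, SE 0.38), and ID1, a transcription regulator that USP1 stabilizes, the lowest (-0.80, SE 0.53). PCNA stood at 11.9 CPM in Embryo511_1, its lowest methionine pool, where USP1 was highest. In 10 pools 11 were higher and 1 lower, with a median of 0.25, and 2 had an unadjusted p under 0.05, as did 11.9% of all genes.

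Of 14 genes of S phase and proliferation, 12 were higher and 2 lower in methionine pools, with a median log2 fold change of 0.30 against 0.0051 over all genes. None passed the FDR in edgeR's quasi-likelihood test, and 2 had an unadjusted p under 0.05 (7.92% of all genes did), MCM6 (0.71, SE 0.24, FDR 0.584), a helicase subunit with the highest fold change, and RRM2 (0.70, SE 0.30, FDR 0.607), which makes deoxynucleotides and was named after its values were seen. The lowest was CCNE2, a cyclin of S phase entry (-0.49, SE 0.31). In 10 pools the median was 0.33 and 5 of the 14 had an unadjusted p under 0.05, as did 11.9% of all genes. Their summed level ran from 1087 to 1435 CPM in 5 control and from 1200 to 1857 CPM in 5 methionine pools. It was lowest in Embryo444_2 (1031 CPM) and Embryo511_1 (834 CPM). Yet MKI67 was there at the top of its control and methionine ranges. TOP2A was at the top of its control range in Embryo444_2, and CCNE2 at the top of its methionine range in Embryo511_1. The part of these genes in the USP1 levels was not tested.

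**Figure D5:**
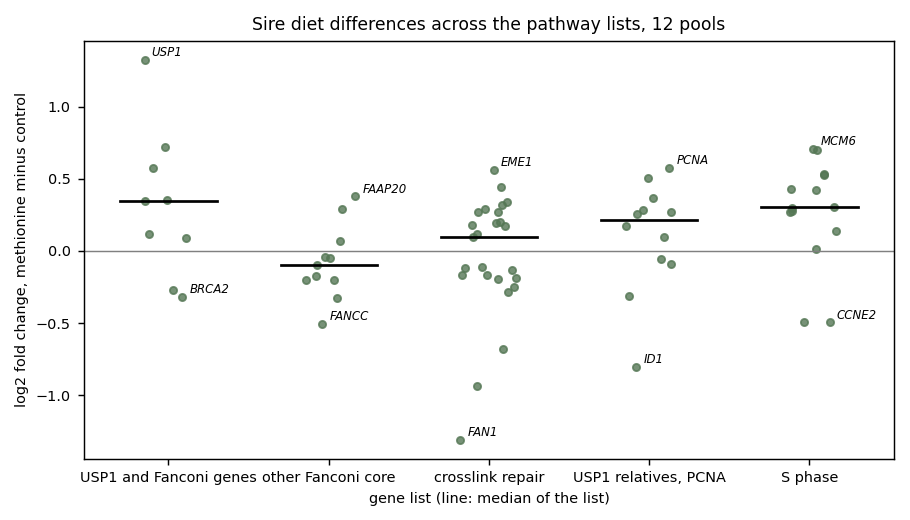
Each point is the log2 fold change (y axis, methionine minus control, 12 pools) of a gene in one of 5 lists (x axis), with a line at the median of the list and labels on the highest and lowest genes. The medians of the other 4 lists lie between -0.10 (core complex) and 0.30 (S phase). The line of the first list (0.35) includes USP1. At 1.32 USP1 is above every other gene shown, but it was chosen on this contrast, so its place carries no further information.

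In the ARS-UI_Ramb_v3.0 annotation, FANCI, FANCA, FANCL and UBE2T overlap another gene (POLG, ZNF276, VRK2 and LGR6). The counts were made on another assembly, Oar_rambouillet_v1.0, and whether they used strand is not given in the sources used here. How reads in such overlaps were counted is therefore not known. USP1, WDR48, FANCD2, BRCA1 and BRCA2 overlap none in the annotation used here. POLG, ZNF276 and VRK2 had log2 fold changes of -0.078, -0.37 and 0.041 (FDR 0.956, 0.821 and 0.986 by edgeR's quasi-likelihood test).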

How the data were processed

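Per the study's methods, the authors trimmed the single-end reads of the 12 pools with Trimmomatic, aligned them to Oar_rambouillet_v1.0 with STAR and deposited its raw counts per gene, with no molecular identifiers stated. Intervals therefore cover counting error only where counting is named. The members and gene lists were chosen with earlier results of these data known. The 16488 genes that reached 15 counts in 4 or more pools were scaled by TMM, and sire diet was tested over the 12 pools with edgeR 4.0.16 (quasi-likelihood, R 4.3.3) and a Benjamini-Hochberg FDR over all genes. CPM were computed from TMM library sizes, and log2 values used a prior count of 2. The common biological coefficient of variation was 0.450, and the correlation between pools of a ram, by limma 3.58.1, was 0.263. Pools Embryo424_1 and Embryo424_2 were the most alike (chi-square per gene 3.28, others at least 8.31) and were kept separate. Alternatives were the likelihood-ratio test, DESeq2 1.42.0, scaling by RLE, looser count filters, counts summed over the pools of each ram, ram as a random effect, and each pool and ram left out. Added after the values were seen were the fit without both pools that stood apart, the sum of Embryo424_1 and Embryo424_2, and total counts without TMM. The procedure was tested on simulated data. Further steps used scipy 1.17.1, matplotlib 3.10.9, pandas 2.3.3 and numpy 2.4.6 under Python 3.11.15. Genes named are the 9 members, for each pathway list the genes past the FDR and the highest and lowest fold change, and the 5 genes most like USP1. The gene table used for overlaps is of ARS-UI_Ramb_v3.0, so no coordinates or sequences are given. Sperm methylation counts were not used here, because their cytosines could not be placed at the members.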

Additional observations from a re-analysis of the deposited data

Results flagged for a closer look

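In each group of 6 pools, the gap of the highest or lowest pool to its nearest neighbor was divided by the range of the group, and a pool was marked where this share exceeded 0.625. Of the 18 groups (9 genes, 2 diets) 5 had such a pool. Chance alone marks about 1 in 20 independent groups, but these groups share the same 12 libraries, and USP1 was chosen for its high methionine counts. In 4 of the 5 it was methionine pool Embryo511_1, at 134 CPM for USP1, 385 CPM for WDR48, 45.6 CPM for FANCL and 167 CPM for BRCA1. The nearest methionine pools held 59.99 CPM of USP1, 137 CPM of WDR48, 17.7 CPM of FANCL and 112 CPM of BRCA1. The other was control pool Embryo423_1, at 121 CPM of FANCA with the next control pool at 89.4 CPM.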

How the results depend on the processing

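None of the 8 genes other than USP1 passed the FDR under any of 28 alternatives (smallest FDR 0.500). At an unadjusted p under 0.05, edgeR's quasi-likelihood test held 1 of the 8 without Embryo410_2 (1233 of all 16488 genes). It held 2 of the 8 without Ram424 (1434 of all genes), and every other alternative had 0. The count of all genes past the FDR was 0 by edgeR's quasi-likelihood test, 5 by the likelihood-ratio test, 16 by DESeq2 and 1 without both pools that stood apart. That count stayed at 0 with a pool or ram left out. The log2 fold change of USP1 ran from 0.91 to 1.75 over all alternatives, and from 1.01 (without Embryo511_1) to 1.75 (without Ram424) with a pool or ram left out. FANCI, FANCL, UBE2T, BRCA2 and WDR48 kept their direction, and WDR48 ran from 0.017 without both pools to 1.12 without Ram424. FANCD2 changed direction without Embryo424_3 (-0.037), without Ram424 (-0.063) and with total counts in place of TMM (-0.018), with a leave-one-out range of -0.063 to 0.18. FANCA did so without Embryo424_3 (-0.091, range -0.091 to 0.49), and BRCA1 without Embryo511_1, the only pool of Ram511 (-0.037, range -0.037 to 0.32), and without both pools (-0.087). The cause was not tested. No paired analysis was possible because pool numbers count the pools of a ram and pair nothing between diets. Other settings for sperm methylation at these genes were not run. Ram511 and Ram498 each rest on 1 pool, and the low counts of FANCL limit its precision.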
